A study of Mus musculus with 4 samples.

Results

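Oligodendrocyte genes for myelin lipid synthesis, for gap junctions and for membrane proteins associated with myelin, 9 in all, were followed over areas of the mouse brain and between diets. They are Ugt8a, Fa2h, Gal3st1, Aspa, Gjc3, Gjb1, Pllp, Tspan2 and Gpr37, which were listed by symbol and found as 9 of the 19465 features that the probe panel measured. The data were Visium spatial transcriptomes of coronal brain sections from formalin-fixed blocks of wild-type male C57BL/6J offspring at postnatal day 21. Dams entered at 8 weeks of age and ate 2 mg/kg folic acid (the MF group) or 20 mg/kg folic acid (the HF group) for 2 weeks before mating and then through pregnancy and lactation. Each group held 2 sections, described as biological replicates; their litters are not given in the sources used here, so p-values below measure the spread between these 4 sections. The question of each comparison was where in the section these genes are expressed and whether their levels differ between HF and MF offspring.

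Myelin is the lipid-rich membrane that oligodendrocytes wrap around axons, and in rodents much of it is laid down in the weeks after birth. Galactosylceramide and its sulfated form, sulfatide, are its characteristic glycolipids, and their hydroxylated fatty acid chains help to pack the membrane. Oligodendrocytes are also joined to astrocytes and to their own myelin layers by channels built from connexins. A Visium spot is an area of tissue that can hold several cells, so fewer oligodendrocytes and less RNA per oligodendrocyte cannot be told apart in any value below.

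The first 4 members act on myelin lipids. Ugt8a makes galactosylceramide, Fa2h hydroxylates the fatty acids used in it, Gal3st1 adds the sulfate that gives sulfatide, and Aspa cleaves N-acetylaspartate from neurons into aspartate and acetate, a carbon source for lipid synthesis. In the GRCm38 annotation (GENCODE vM21), Ugt8a (ENSMUSG00000032854) spans chr3:125865271-125938619 on the minus strand, with 5 exons in its longest principal transcript. Fa2h (ENSMUSG00000033579) spans chr8:111345135-111393824, minus strand, 7 exons. Gal3st1 (ENSMUSG00000049721) lies at chr11:3983636-3999326 on the plus strand and has 4 exons, and Aspa (ENSMUSG00000020774) lies on the same chromosome at chr11:73304992-73329596, minus strand, with 7 exons.

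Both connexins are proteins of the myelin sheath. Gjc3 (ENSMUSG00000056966) is at chr5:137953461-137963098, minus strand, 3 exons. Gjb1 (ENSMUSG00000047797), whose human counterpart is mutated in an X-linked peripheral neuropathy, is at chrX:101376378-101385629, plus strand, 2 exons. The remaining members are membrane proteins. Pllp, or plasmolipin (ENSMUSG00000031775, chr8:94674894-94696278, minus strand, 4 exons), is a tetraspan proteolipid of myelin. Tspan2 (ENSMUSG00000027858, chr3:102734529-102801513, plus strand, 8 exons) is a tetraspanin of oligodendrocytes, and Gpr37 (ENSMUSG00000039904, chr6:25665878-25690729, minus strand, 2 exons) is an orphan G protein-coupled receptor.

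Promoter sequence is shown as a description of the members, and no link between it and the diet differences below was tested. RefSeq windows (GRCm38.p6, 250 bases before to 50 after a transcript start) were found for 8 of the 9 members, 14 windows in all; Fa2h is named without one. Each window was searched on both strands for CTGGCAC and CTGGTAC, core letters known for the myelin factor MYRF, ACAAAG and AACAAT, core letters of SOX factors, and CAGCTG, an E-box. The stretches below are the part before the start, free of annotated untranslated exon, of every member window with a match, plus that of Ugt8a as the most GC-rich; capitals mark the matched letters, given in the gene's own direction.
Aspa, chr11:73324638-73324887, minus strand: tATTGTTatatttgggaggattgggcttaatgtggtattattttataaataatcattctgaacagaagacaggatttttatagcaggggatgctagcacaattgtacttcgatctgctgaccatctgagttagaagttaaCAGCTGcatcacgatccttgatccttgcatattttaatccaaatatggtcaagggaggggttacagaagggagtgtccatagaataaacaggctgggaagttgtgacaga
Gjb1, window 1, chrX:101376126-101376375, plus strand: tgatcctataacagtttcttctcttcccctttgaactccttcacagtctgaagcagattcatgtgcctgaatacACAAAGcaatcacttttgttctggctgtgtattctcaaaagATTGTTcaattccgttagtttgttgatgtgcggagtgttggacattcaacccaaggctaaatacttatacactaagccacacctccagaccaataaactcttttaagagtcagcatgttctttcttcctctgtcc
Gjb1, window 4, chrX:101383482-101383731, plus strand: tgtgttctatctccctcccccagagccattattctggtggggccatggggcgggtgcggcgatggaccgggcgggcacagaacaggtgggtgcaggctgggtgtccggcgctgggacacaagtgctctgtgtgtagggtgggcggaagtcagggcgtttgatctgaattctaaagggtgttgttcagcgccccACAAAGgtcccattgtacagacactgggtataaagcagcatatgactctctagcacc
Tspan2, window 2, chr3:102735066-102735214, plus strand: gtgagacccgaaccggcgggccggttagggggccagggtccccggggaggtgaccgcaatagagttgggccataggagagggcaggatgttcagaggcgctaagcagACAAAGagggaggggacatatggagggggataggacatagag
Ugt8a, chr3:125938653-125938902, minus strand: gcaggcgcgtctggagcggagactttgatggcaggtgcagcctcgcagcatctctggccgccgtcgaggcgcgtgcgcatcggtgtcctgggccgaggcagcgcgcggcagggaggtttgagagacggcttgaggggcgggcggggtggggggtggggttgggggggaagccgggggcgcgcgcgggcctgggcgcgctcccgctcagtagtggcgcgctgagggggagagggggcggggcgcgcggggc

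Any of the 5 motifs was present in 4 of the 14 member windows, against 43.3% of all 32851 windows of this length. ACAAAG stood in 3 windows, those of Tspan2 (42 bases before the start, position -42) and Gjb1 (positions -176 and -57), and 18.7% of all windows held it. AACAAT was found on the opposite strand, where it reads ATTGTT, in Aspa (position -249) and Gjb1 (position -135), against 10.7% of all windows. CAGCTG was found in Aspa (position -110), against 16.3%. Neither MYRF letter set was found in a member window, and 5.01% and 2.24% of all windows held CTGGCAC and CTGGTAC. The Ugt8a window was 78.3% G or C and that of Aspa 39%, beside a median of 52.7% over all windows. A match is a description of letters and not of binding.

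The sections held 3598 and 3314 spots in the MF group and 3197 and 3343 in the HF group after 18 spots with too few UMIs or genes were left out. Summed UMIs (unique molecular identifiers, which count captured probe molecules) ran from 34983708 in HF replicate 1 to 90098381 in MF replicate 1, while MF replicate 2 and HF replicate 2 were close in median UMIs per spot (12074.5 and 11831). Spots were clustered without the 9 members, and clusters were joined to areas named from their markers: cortex, hippocampus, thalamus, hypothalamus, striatum and white matter. Levels are CPM, the UMIs of a gene per 1000000 UMIs summed over the spots of an area. CPM of different genes are not compared, since probes differ between genes. The white-matter spots were grouped with other myelin genes among the clustering genes, so the contrast below places the members and is not independent evidence that this area is myelinated.

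**Figure D1:**
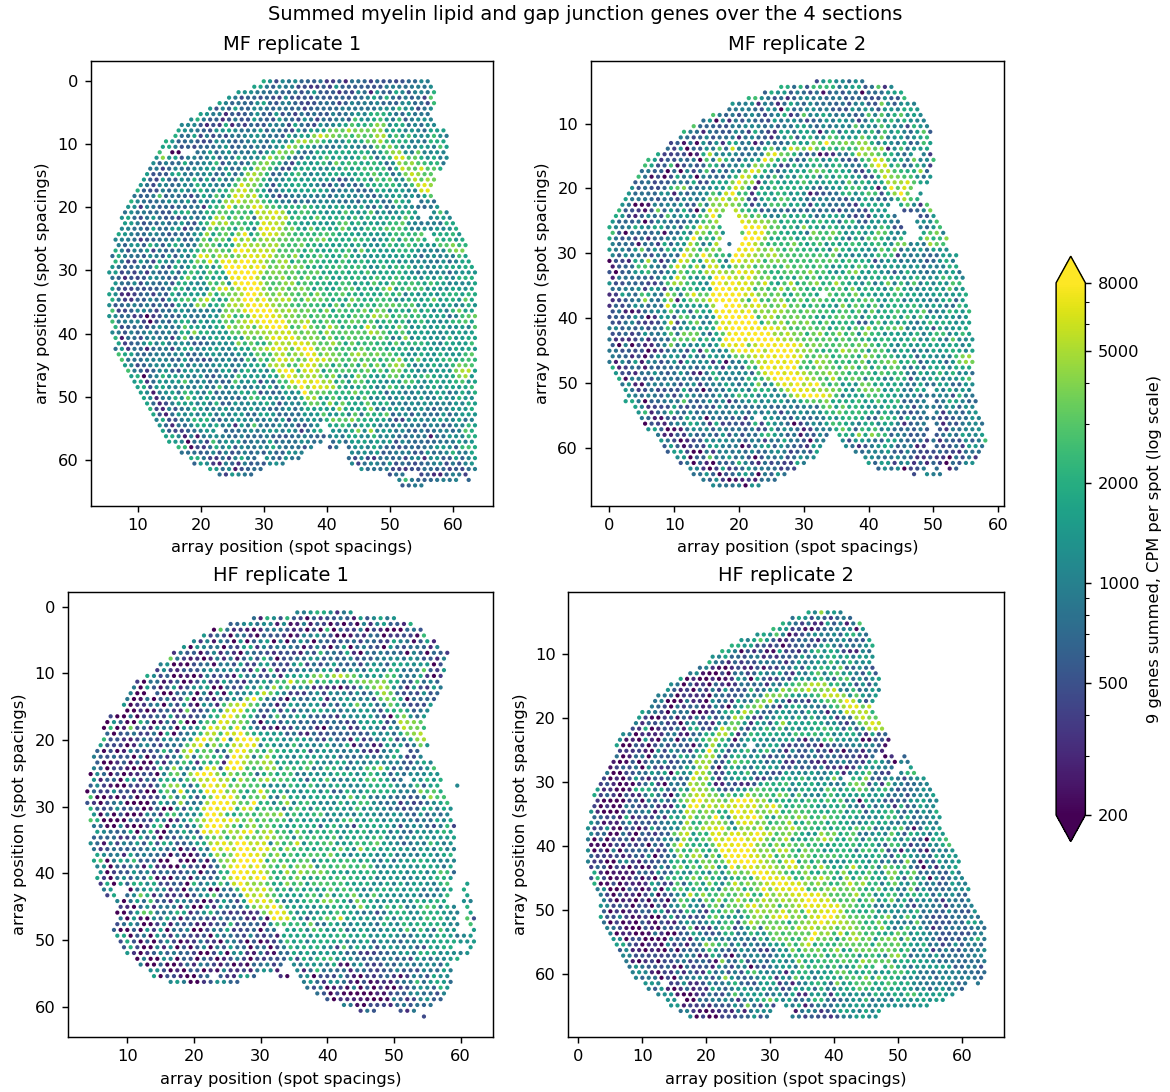
Each point is a spot at its place on the Visium array in the 4 sections, coloured by the summed CPM of the 9 genes on a log scale. High values form a continuous curved band in every section, and the outer rim of the cortex holds many of the low values.

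All 9 members were highest in white matter in each of the 4 sections, with no overlap with any other area. Against the mean of the other 5 areas, with section as a block, edgeR's quasi-likelihood test called all 9 higher in white matter, where 23.4% of the 14034 features tested were called higher. Ugt8a had the largest difference, 2.24 on the log2 scale (SE 0.044), followed by Fa2h (2.23), Gjb1 (2.20), Tspan2 (2.09), Aspa (2.04), Gjc3 (2.00), Gal3st1 (1.99), Gpr37 (1.93) and Pllp (1.92). In folds this is a range from 3.79 to 4.74, and the adjusted p-values ran from 3.34e-30 to 9.54e-23. The 10 structural myelin genes, among them Mbp, Mobp, Mog, Mag, Cnp, Cldn11, Mal, Opalin and Ermn, were also all called, between 2.10 for Opalin and 2.35 for Mag. All 10 were markers used to name white matter and were not left out of the clustering. Their calls thus follow from how the area was defined and serve only as a scale for the members.

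For Ugt8a the mean level was 870 CPM ± 132 (SD, n = 4) in white matter, 304 ± 50.1 in striatum, 264 ± 43.5 in thalamus, 196 ± 23.1 in hypothalamus, 129 ± 30.7 in hippocampus and 122 ± 22.6 in cortex. The same order held for Fa2h, Aspa, Pllp, Tspan2 and Gpr37, while thalamus stood before striatum for Gal3st1, Gjc3 and Gjb1. Ranges over the 4 sections of striatum and thalamus overlapped for every member. Within sections, Ugt8a and Pllp were higher in striatum than in thalamus in 4 of 4, Gjc3 was higher in thalamus in 4 of 4, and the other members were divided. Hippocampus and cortex ranges overlapped as well for 8 of the 9 members, although Fa2h and Gjc3 were higher in hippocampus in 4 of 4 sections. Gpr37 was the exception: its hippocampus sections lay between 73.8 and 95.9 CPM (mean 84.4 ± 9.43), all above its cortex sections, between 42.1 and 58.3 CPM (mean 50.9 ± 7.14).

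The step from cortex to white matter was largest for Gjb1, with a mean ratio of 8.28, and smallest for Pllp, with 5.40. Tspan2 went from 357 CPM ± 58.2 in cortex to 2257 ± 170 in white matter (n = 4 each), Gal3st1 from 38.7 ± 5.06 to 218 ± 22.8, and Aspa from 16.9 ± 3.31 to 108 ± 4.30. Gjc3 went from 38.4 ± 4.78 to 242 ± 27.9. White matter was between 7.5% and 10.7% of a section's spots and held a larger part of each member's UMIs, from 17.4% to 35.5% depending on gene and section.

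**Figure D2:**
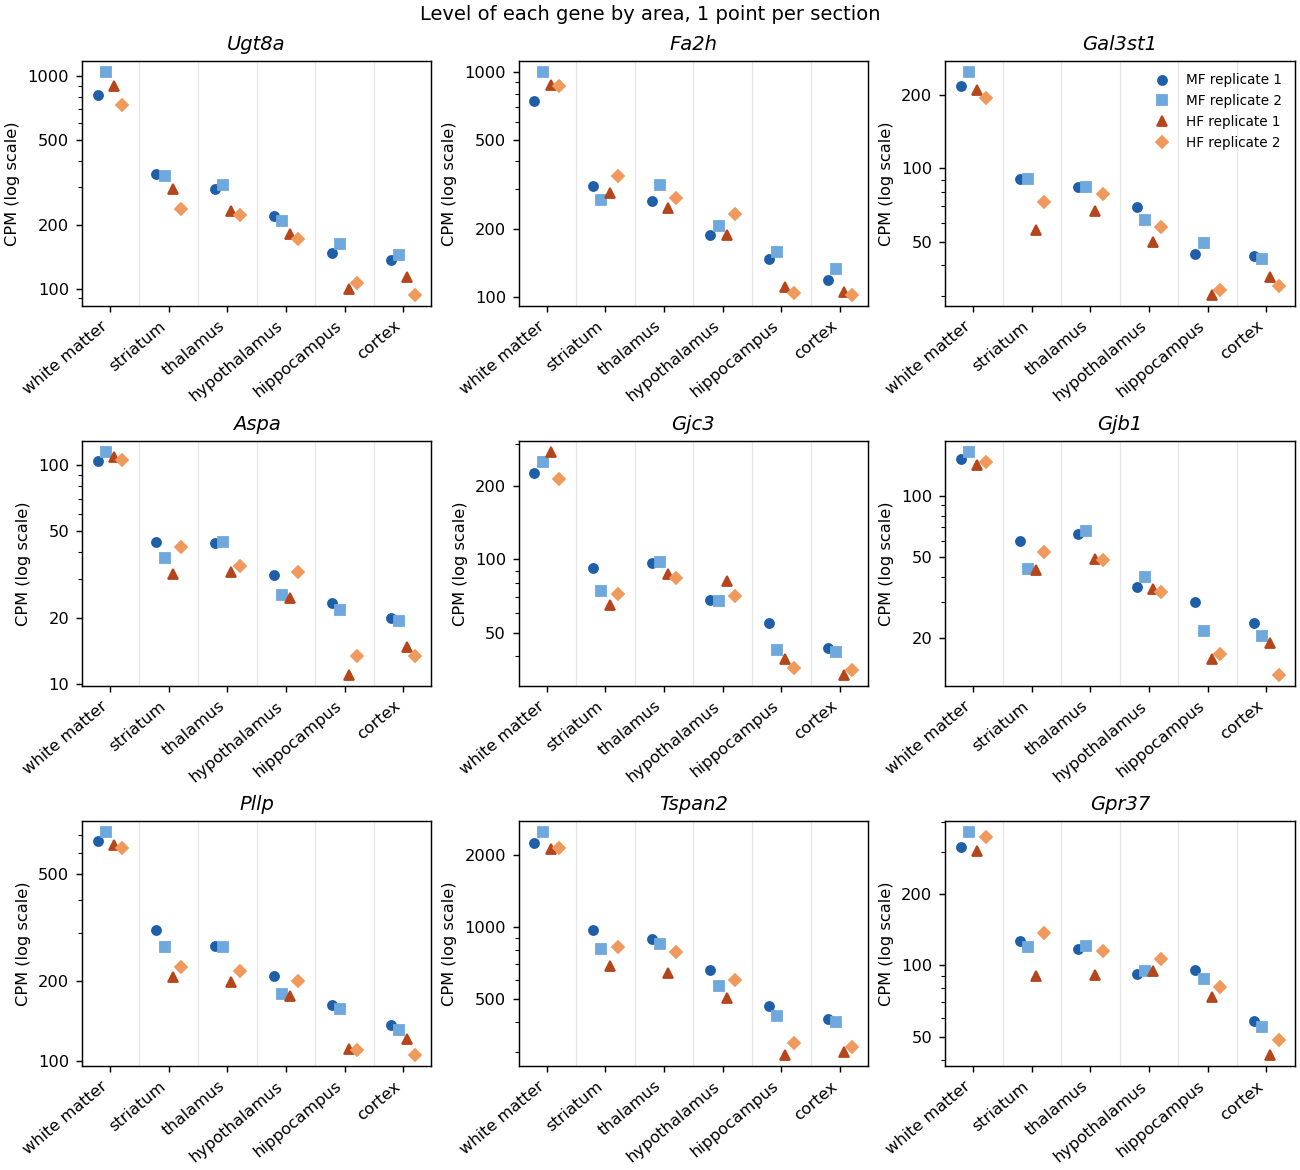
Each point is the CPM (log axis) of a gene in an area of a section, with a panel for each of the 9 genes, the 6 areas along the horizontal axis and the 4 sections by symbol. In every panel the white-matter points stand above all others, and the cortex and hippocampus points overlap in 8 of the 9 panels, Gpr37 being the exception.

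Over 16 clusters in 4 sections (64 points, log2(CPM + 1), centred within section), the genes whose pattern was most like each member were sought among 10306 features of at least 10 CPM. These correlations are descriptions without p-values, since points of a section share library and depth. Among the 27 nearest genes, 3 for each member, 19 entries were structural myelin genes. Tspan2 was closest to Cnp (Pearson r = 0.996), Pllp to Cnp (0.993), Ugt8a to Mal (0.993), Gal3st1 to Mal (0.972) and Gjc3 to Mog (0.969). Mog was among the nearest 3 of Fa2h (0.990) and of Gjb1 (0.973). Aspa and Gpr37 had no structural myelin gene among their nearest 3. Aspa's were Trf (0.955), the transferrin gene, Lpar1 (0.950) and Cryab (0.948), and those of Gpr37 were S1pr5 (0.957), Myrf (0.950) and Slc44a1 (0.941). Among themselves, the 36 pairs of members had r between 0.885 (Gal3st1 with Gpr37) and 0.990 (Pllp with Tspan2), with a median of 0.946.

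The deposited Moran's I, a score of how alike neighbouring spots are, gave a similar order within the set. Tspan2 had the highest values of the 9 in each section, from 0.477 to 0.582, and Aspa the lowest, from 0.139 to 0.237. The median over members was between 0.279 and 0.341, below that of the structural myelin genes (0.555 to 0.636). A gene with fewer UMIs per spot gives a noisier score, and Aspa had the fewest UMIs of the set in each area by the mean CPM over sections; the part of depth in this order was not tested.

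The other genes of the same pathways differed in how far they followed the members into white matter. Of 15 further genes of sphingolipid synthesis and breakdown, 8 were called higher and 1 lower in white matter; Elovl7, a fatty acid elongase, was the highest at 2.11 on the log2 scale and Ugcg, which starts glucosylceramide synthesis, the lowest at -0.34. Of 10 genes of acetate and fatty acid metabolism, 8 were called higher and 1 lower, from 1.22 for the desaturase Scd2 to -0.52 for Nat8l, the neuronal enzyme that makes the substrate of Aspa. Of the other connexins, the astrocyte connexin Gja1 was called higher at 0.34 and the neuronal connexin Gjd2 lower at -0.52. Among 11 related membrane proteins, 7 were called higher, led by Cd9 (1.87), and 2 lower, with Mal2 at -0.56. All 15 oligodendrocyte lineage genes and all 14 cholesterol synthesis genes tested were called higher, with medians of 1.73 and 0.997 beside the members' 2.04.

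Between diets, the members stood lower in the HF group in most areas, by an amount that depended on the area, and edgeR's adjusted test called 1 of them in 1 area. A gene was called at an adjusted p under 0.05 and a difference of at least 1.2-fold. With 2 sections against 2, an exact two-sided permutation test of a single value cannot go below p = 0.333. Over the 6 areas, 49 of the 54 combinations of member and area had a negative log2 fold change. In 37 of them both HF sections lay below both MF sections, in 2 both lay above, and in 15 the groups overlapped. Over all features and the same 6 areas, 18.0% of pairs lay below in this way and 18.6% above. These combinations are not independent, since the members share their sections and cells. The median log2 fold change of all features tested was near 0 in every area.

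The cortex held the called difference. Tspan2 was at 414 and 400 CPM in the MF sections and at 300 and 314 CPM in the HF sections, so that the groups did not overlap. It fell by 0.39 on the log2 scale (SE 0.079), that is by 23.8%, with an adjusted p of 0.0447; in this area 0.0763% of the 13102 features tested were called lower. Leaving out MF replicate 1 or MF replicate 2 ended the call (adjusted p = 0.734 and 0.301), while without HF replicate 1 or HF replicate 2 it remained (0.000447 and 6.7e-05), in fits that called 2.98% and 0.402% of all features lower. Over all 13 alternatives the adjusted p ran from 6.7e-05 to 0.734 and the log2 fold change from -0.43 to -0.34.

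The other 8 members were not called in cortex, although both HF sections lay below both MF sections for all 9, as they did for 21.2% of all features tested there. The members' median was -0.31. All 9 had an unadjusted edgeR p under 0.05, as did 1084 of the 13102 features tested, 606 of them lower. Ugt8a was at 136 and 143 CPM in MF sections against 113 and 93.8 in HF sections, with a log2 fold change of -0.42 (SE 0.096, adjusted p = 0.0991). Gjb1 had the largest difference of the set, -0.50 (SE 0.162, adjusted p = 0.411), with 23.5 and 20.5 CPM in MF against 18.8 and 13.2 in HF sections. Pllp had the smallest, at -0.23. The structural myelin genes had a median of -0.34, with Mal called lower (-0.42, adjusted p = 0.0216).

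The hippocampus had the largest median difference of the 6 areas, -0.53. edgeR called none of the 9 there, with adjusted p-values from 0.0718 to 0.604. All 9 had an unadjusted edgeR p under 0.05, as did 970 of the 12282 features tested, 528 of them lower. DESeq2 called 2, Tspan2 and Ugt8a, in a fit that called 0.0908% of all features lower. That share is over 16515 features, of which 8965 had no adjusted p and could not be called. All 9 members had both HF sections below both MF sections, against 19.5% of the 12282 features tested. Of these features edgeR called 0.0326% lower. Without HF replicate 1 edgeR called 8 members (1.96% of all features lower) and without HF replicate 2 it called 5 (0.621%). With no filter on low counts it called 7 (0.418%), and with the replicate number as a block 4 (0.212%).

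Among the lipid enzymes in hippocampus, Aspa had the largest difference in size. It was at 23.4 and 21.8 CPM in MF sections and at 11.01 and 13.5 CPM in HF sections. These levels rest on few UMIs, 177 and 75 in MF and 33 and 60 in HF sections. The edgeR log2 fold change was -0.87 (SE 0.188, adjusted p = 0.145). This value moved to -0.51 at Leiden resolution 0.5 and to -1.31 with interior spots. The value of Ugt8a ran from -0.74 to -0.46 over all 13 alternatives. At resolution 0.5 the larger cluster named hippocampus (672 spots) had Gpr151 and Ecrg4 among its leading genes. These genes led the medial habenula cluster at resolution 1, so that setting does not cover the same spots as the main hippocampus. Ugt8a was at 147 and 163 against 100.1 and 106 CPM (-0.57, SE 0.0996, adjusted p = 0.0718), Fa2h at 147 and 157 against 110 and 103 CPM (-0.50), and Gal3st1 at 44.4 and 49.7 against 30.4 and 31.8 CPM (-0.57). In each of these 4 genes the higher HF section was below the lower MF section.

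The connexin Gjb1 was at 29.9 and 21.5 CPM in MF against 15.7 and 16.6 CPM in HF sections (-0.71, SE 0.195). Its levels rest on 226 and 74 UMIs in MF and 47 and 74 UMIs in HF sections. Gjc3 was at 55.0 and 42.4 against 39.1 and 35.9 CPM (-0.41). Of the membrane proteins, Tspan2 was at 469 and 424 against 292 and 328 CPM (-0.52, SE 0.094, adjusted p = 0.0734). Pllp was at 162 and 157 against 111 and 110 CPM (-0.53, SE 0.092, adjusted p = 0.0718). Gpr37, the member with relatively more hippocampal signal, had the smallest difference, with 95.9 and 87.1 CPM against 73.8 and 80.7 CPM (-0.24, adjusted p = 0.604). The structural myelin genes had a median of -0.55, and edgeR called Cldn11 lower (-0.62, adjusted p = 0.0409).

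**Figure D3:**
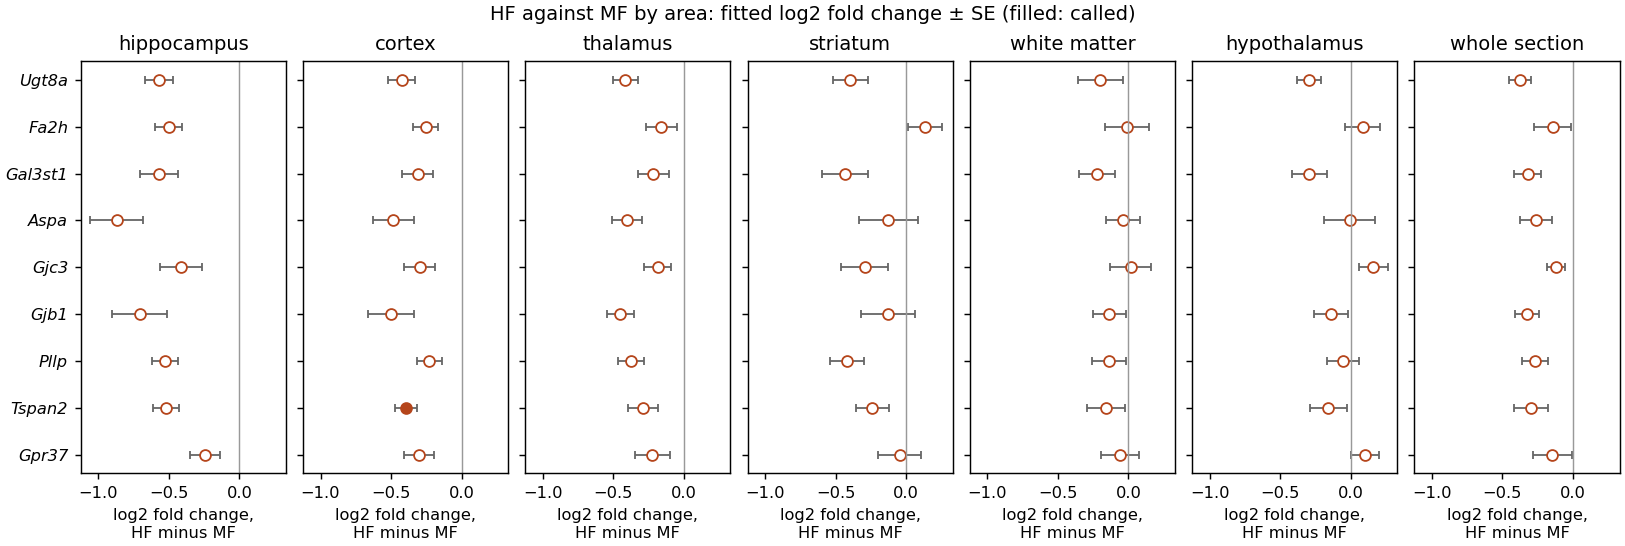
Log2 fold changes of HF against MF with their standard errors from edgeR for each of the 9 genes in the whole section and in 6 areas, with a line at 0. Values lie furthest below 0 in hippocampus and nearest to 0 in hypothalamus and white matter; the filled point is Tspan2 in cortex, the called one.

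In thalamus the members' median was -0.29 and 8 of the 9 had both HF sections below both MF sections (17.9% of all features). With edgeR, 5 members had an unadjusted p under 0.05, as did 958 of the 13382 features tested. edgeR and DESeq2 called none of the members, and edgeR called 0.0% of all features lower. Gjb1 was at 65.1 and 67.3 CPM in MF and at 48.9 and 48.2 CPM in HF sections (-0.45, SE 0.096, adjusted p = 0.569). Ugt8a was at 295 and 308 against 233 and 222 CPM (-0.42). Fa2h, at 268 and 314 against 249 and 275 CPM, was the member whose groups overlapped. Without HF replicate 1 edgeR called 3 members there (4.03% of all features lower) and without HF replicate 2 it called 7 (5.26%).

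Striatum gave a median of -0.24, with 4 members below in both HF sections (17.0% of all features) and none called by either tool. edgeR called 0.0359% of features lower. An unadjusted edgeR p under 0.05 was found for 4 members and for 711 of the 11143 features tested. Ugt8a was at 347 and 338 against 293 and 237 CPM (-0.40, SE 0.124), Pllp at 310 and 267 against 207 and 225 CPM (-0.42), and Gal3st1 at 90.3 and 90.6 against 55.8 and 72.7 CPM (-0.43). Fa2h had a positive value, 0.13, and its groups overlapped. Without HF replicate 1, 1 member was called (0.489% of all features lower), and the median without 1 section ran from -0.41 to -0.08.

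White matter, where the members are highest, gave a median of -0.14. Both HF sections lay below both MF sections for 4 members, Gal3st1, Gjb1, Pllp and Tspan2 (15.3% of all features). No member had an unadjusted edgeR p under 0.05, while 568 of the 12705 features tested did. edgeR and DESeq2 called none of the members (0.0% of features were called lower by edgeR). Tspan2 was at 2247 and 2500 CPM in MF and at 2132 and 2149 CPM in HF sections (-0.16, SE 0.132). The MF sections differed from each other by more than that for Ugt8a, at 812 and 1042 CPM, with HF sections at 894 and 734 CPM (-0.20, SE 0.160). Without MF replicate 2 the median was 0.0003.

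The hypothalamus had a median of -0.06, with 6 members negative, 3 below in both HF sections (17.2% of all features) and 2 above (20.5% of all features). edgeR and DESeq2 called none (0.0% of features lower by edgeR). With edgeR, 2 members, Ugt8a and Gal3st1, had an unadjusted p under 0.05, as did 865 of the 13546 features tested. Ugt8a was at 221 and 209 against 181 and 172 CPM (-0.30, SE 0.088). Those above were Gjc3, with 68.1 and 67.2 CPM in MF and 81.3 and 71.0 CPM in HF sections (0.16, SE 0.104, adjusted p = 0.785), and Gpr37, with 91.7 and 94.6 against 94.7 and 106 CPM (0.10). The sign of the median turned to 0.043 without HF replicate 1, to 0.022 without MF replicate 1 and to 0.010 when spots at area borders were left out; without HF replicate 1 and without HF replicate 2, 1 member was called (3.61% and 2.05% of all features lower).

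Summed over the whole section, the median was -0.27 and 7 of the 9 members were below in both HF sections (17.9% of all features). edgeR and DESeq2 called none of them, and edgeR's adjusted p-values were between 0.696 and 0.825. By edgeR 0.0% of features were called lower. Of the members 5 had an unadjusted edgeR p under 0.05, as did 1020 of the 14971 features tested. Ugt8a was at 270 and 293 CPM in MF and 213 and 222 CPM in HF sections (-0.38, SE 0.080). Gpr37 overlapped, at 113 and 114 against 88.7 and 117 CPM. Without HF replicate 1 edgeR called 1 member (median -0.13; 4.28% of all features lower), and without HF replicate 2 it called 8 (median -0.41; 3.22%).

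Whether the diet difference of a gene differed between areas was tested with an area by diet term over all 6 areas. edgeR called none of the members, and 0.0428% of the 14034 features were called. An unadjusted edgeR p under 0.05 was found for 7 of the 9 members and for 869 of the 14034 features. DESeq2 was not run for this test. Aspa had the smallest adjusted p of the set, 0.311, with log2 fold changes that spanned 0.84 over the areas, and Fa2h the next, 0.331. Without HF replicate 1, Fa2h was called, in a fit that called 2.21% of all features.

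Within single clusters of spots the sum of the 9 members was lower in the HF group in 16 of 16 clusters, and in 11 of them both HF sections lay below both MF sections. Of the 144 combinations of cluster and member, 129 had a lower HF mean and 91 had both HF sections below both MF sections, while 17.6% of all feature and cluster pairs did. The cortex cluster of upper layers, led by Lamp5, had the lowest sum of the 16. It was at 747 and 730 CPM in MF and at 515 and 443 CPM in HF sections, a log2 ratio of -0.62. In the deep-layer cortex cluster, with Fezf2 among its markers, the sum was at 1136 and 1197 against 946 and 986 CPM (-0.27). The larger hippocampus cluster was at 1520 and 1532 against 1070 and 1167 CPM (-0.45), again without overlap.

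The hypothalamus, whose median was near 0, was made of 3 clusters whose sums had log2 ratios of -0.45, -0.22 and -0.15. Its cluster richest in the members numbered 271 and 302 MF spots against 356 and 425 HF spots, and its poorest 265 and 162 against 140 and 23. In thalamus the richer cluster held 406 and 356 MF spots and 205 and 238 HF spots, with a log2 ratio of -0.10 in its sum, and the poorer cluster held 254 and 264 against 393 and 290, with -0.20. The plane of each section and the diet cannot be told apart in these spot numbers.

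**Figure D4:**
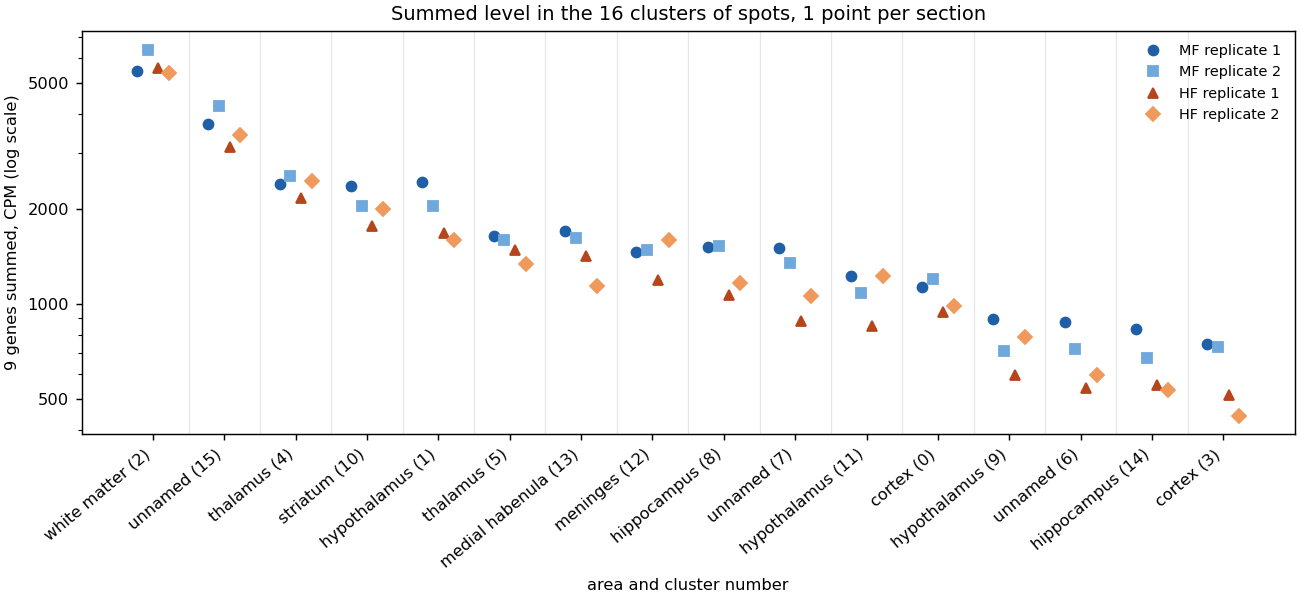
Summed CPM of the 9 genes in each of the 16 clusters of spots on a log axis, with 1 point per section, MF in blue and HF in orange, and clusters ordered by their mean. The HF points lie below the MF points in 11 of the 16 clusters, and the means span a 9.38-fold range from upper cortex to white matter.

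The members were next set against the structural myelin genes in the same spots, which shows whether they were lower than myelin RNA as a whole. Per 1000 structural myelin UMIs of the whole section, the 9 members together had 73.4 and 71.3 UMIs in MF and 68.1 and 75.3 UMIs in HF sections. The groups overlapped for this sum in each of the 6 areas too, with log2 ratios between -0.05 and 0.01.

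Single members departed from this. Ugt8a was lower relative to structural myelin, with 10.4 and 10.8 UMIs per 1000 in MF against 9.9 and 9.59 in HF sections, and its groups did not overlap in 5 of the 6 areas, the hippocampus being the exception. On this scale features with both HF sections below both MF sections made up 2.02% in the whole section, 2.14% in cortex, 0.716% in hippocampus, 1.97% in thalamus, 9.49% in hypothalamus, 3.15% in striatum and 5.28% in white matter. Aspa was below in 3 areas, cortex, hippocampus and thalamus, most in hippocampus (1.55 and 1.46 against 1.05 and 1.29 UMIs per 1000, a log2 ratio of -0.36). Gjc3 was above, with 3.18 and 3.0 against 3.53 and 3.28 UMIs per 1000, and so it was in thalamus and hypothalamus. Fa2h was above in thalamus and in striatum (9.41 and 9.0 against 10.2 and 13.3 UMIs per 1000, a log2 ratio of 0.35), and Gpr37 in hippocampus (6.32 and 5.84 against 7.02 and 7.71, a log2 ratio of 0.28) and hypothalamus. Features with both HF sections above both MF sections on this scale made up 70.0% in the whole section, 85.7% in hippocampus and 68.6% in thalamus. They made up 32.6% in hypothalamus and 42.2% in striatum. Most features were thus above in the whole section, hippocampus and thalamus, so being above there does not set a member apart. Gjb1 was below in the whole section and in thalamus, Gal3st1 in white matter and Pllp in striatum. Pllp was above in cortex, where the share of features above was not counted. Tspan2, the called member, overlapped in all 6 areas. No test was made of these ratios.

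Spots were also sorted into 5 bins by their share of structural myelin UMIs, with edges at 0.848%, 1.34%, 2.03% and 3.46%. The lowest bin held 11.2% and 13.9% of the MF spots and 28.5% and 26.3% of the HF spots, so the HF sections had more spots poor in myelin RNA. The highest bin held 20.1% and 22.2% against 16.8% and 20.9%. Within the upper 4 bins the summed members overlapped between diets, with log2 ratios of 0.00, -0.04, -0.04 and -0.06. In the lowest bin they were at 585 and 527 CPM in MF and at 437 and 454 CPM in HF sections, and the structural myelin genes that define the bin were lower there too (log2 ratio -0.27 beside -0.32 for the members).

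**Figure D5:**
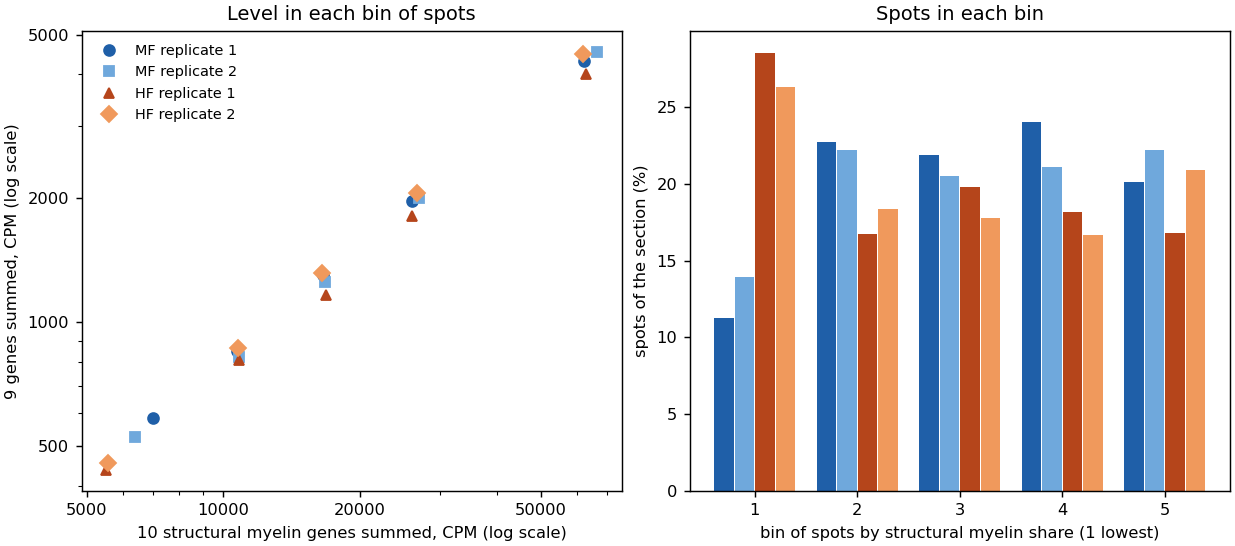
Left, summed CPM of the 9 genes against summed CPM of the 10 structural myelin genes (both log axes) in 5 bins of spots, 1 point per section and bin; right, bars give the percent of each section's spots in each bin. The points of the 4 sections lie close together in the upper 4 bins, and the HF sections (orange) have more spots in the lowest bin.

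Shallower spots can miss a gene. In cortex the share of spots with a Tspan2 UMI, after every spot was thinned to 5000 UMIs, was 80.4% and 79.3% in MF and 64.3% and 68.8% in HF sections; unthinned it was 100% and 94.4% against 80.8% and 88.1%. Thinning left out 13 spots of HF replicate 1 there. On thinned counts the log2 fold change of Tspan2 in cortex was -0.34 and its adjusted p 0.139.

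The other genes of these pathways had median differences between diets nearer to 0, and none of them passed edgeR's test in cortex or hippocampus. The 15 other sphingolipid genes had medians of -0.06 in cortex and -0.12 in hippocampus, where Elovl7 was lowest at -0.51. The acetate and fatty acid genes had medians of -0.20 and -0.14. The other connexins had medians of -0.23 in both areas. The related membrane proteins had medians of -0.18 and -0.13, the oligodendrocyte lineage genes -0.12 and -0.21, and the cholesterol synthesis genes -0.14 and -0.18.

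Markers of other cells were measured beside these results. Of all features tested, 1084 of 13102 in cortex, 970 of 12282 in hippocampus and 711 of 11143 in striatum had an unadjusted edgeR p under 0.05. In cortex 7 of 7 astrocyte markers had a negative log2 fold change (median -0.23, 4 at an unadjusted edgeR p under 0.05). Their summed CPM was 3061 and 2980 in MF against 3043 and 2670 in HF sections. The 6 neuron markers had a median of 0.10 there. Also negative in cortex were 6 of 7 microglia markers (median -0.05) and 6 of 6 meninges markers (median -0.18). Of these, 3 microglia markers, 2 of them lower, and 0 meninges markers had an unadjusted edgeR p under 0.05. Of 5 endothelial markers tested, 1 was negative in cortex (median 0.04), 4 in hippocampus (-0.12) and 0 in the whole section (0.15). In hippocampus 6 of 7 astrocyte markers (median -0.14, 1 at an unadjusted p under 0.05), 6 of 7 microglia markers (median -0.13, 0 at an unadjusted p under 0.05 with edgeR) and 5 of 6 meninges markers had a negative value. The meninges markers had a median of -0.47 there, 2 at an unadjusted p under 0.05, and a summed CPM of 80.3 and 69.4 against 59.7 and 52.2. In striatum all 7 astrocyte markers were negative (median -0.27 beside the members' -0.24, 3 at an unadjusted p under 0.05, summed CPM 2989 and 3257 against 3206 and 2711). In the whole section 0 of 6 choroid plexus markers had a negative value (median 0.53). Their summed CPM was 2449 and 2305 in MF against 3432 and 3802 in HF sections. All 6 had both HF sections above both MF sections, as did 3260 of the 14971 features tested. Of the 6, 5 had an unadjusted edgeR p under 0.05, as did 1020 of all features tested. The Schwann cell gene Pmp2 was at or under 0.094 CPM and Prx at or under 0.699 CPM in every whole section. The part of the astrocyte, microglia, meninges, endothelial and choroid plexus differences in the members' values was not tested.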

How the data were processed

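Visium sections for formalin-fixed tissue were deposited as raw UMI counts per feature and spot; the authors mapped probe reads to mm10 with Space Ranger and counted UMIs, without pooling sections. The array position and tissue flag of each spot (unit: other) and Moran's I (a score) were used as deposited per the file headers; the p-values and adjusted p-values beside that score were not used. Spots with under 500 UMIs or 250 genes were left out, as the authors did. Spots were clustered with the 9 members left out of the genes (2000 variable genes, 30 principal components, Leiden resolution 1; scikit-learn 1.9.0, leidenalg 0.10.2, igraph 0.11.9, Python 3.11.15), and clusters were named from area markers (at least 3 among the leading 50 genes).

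Counts were summed per section and area and tested with edgeR 4.0.16 (R 4.3.3; quasi-likelihood test, TMM, filterByExpr, Benjamini-Hochberg over all features tested), called at adjusted p under 0.05 and at least 1.2-fold. The study's rank test over spots was not used because spots of a section are not replicates. Likeness used log2(CPM + 1). The members are named in every comparison, with the 3 genes most like each, and other genes where called or where highest or lowest of their list. Members, gene lists and tests were chosen with earlier results of these data known. The fits were tested on simulated data. Alternatives were DESeq2 1.42.0, no filter, library size alone, the replicate number as a block, each section left out, spots thinned to 5000 UMIs, 2 other clusterings and interior spots. Over features, the deviations of same-numbered sections had r from -0.20 to 0.0114 over areas. This rests on a single difference per diet, so it cannot show whether the numbers pair the sections. The main fits used no pairing. Depth ran from 34983708 to 90098381 UMIs per section; counts of UMIs bound the precision of each level by counting error, beside the spread between sections. Promoter sequences are RefSeq's. Results for some genes of the lists are not reported here.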

Additional observations from a re-analysis of the deposited data

How the results depend on the processing

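All 9 white-matter differences kept their direction and stayed called in each of the 9 alternatives run for them. Between diets, the adjusted call depended on the settings while the direction mostly did not. Of the members' 9 genes, the number called in cortex (1) was 2 with no filter on low counts, 2 with the replicate block and 0 on thinned spots, with clustering without the oligodendrocyte lists, at Leiden resolution 0.5 and with interior spots; leaving out 1 section gave 0 to 7. In hippocampus (0) it was 2 with DESeq2, 7 with no filter, 4 with the replicate block, 3 with interior spots and 0 to 8 leaving out 1 section. In thalamus (0) no filter gave 2, and leaving out 1 section 0 to 7. Leaving out 1 section gave 0 to 8 in the whole section, 0 to 1 in hypothalamus, striatum and the area by diet test, and 0 in white matter. A crossed pairing of the replicate numbers as a block was chosen after seeing the data. It called 2 members in cortex (0.397% of all features lower), 7 in hippocampus (0.48%) and 3 in thalamus (0.665%). The alternatives of the area by diet test were also chosen after seeing the data. The replicate block changed no other member count. Features called lower made up 0.359% in cortex with no filter and 0.252% with the replicate block, against 0.0763% in the main fit. In hippocampus they were 0.0908% with DESeq2, 0.418% with no filter, 0.212% with the replicate block and 0.155% with interior spots, against 0.0326%. The DESeq2 share there includes 8965 of 16515 features that had no adjusted p. In thalamus they were 0.391% with no filter, against 0.0%.

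The members' median moved to -0.62 in hippocampus with interior spots and to -0.18 in thalamus on thinned spots, and turned to 0.010 in hypothalamus with interior spots. Leaving out 1 section, it ran from -0.41 to -0.13 in the whole section, -0.36 to -0.29 in cortex, -0.61 to -0.51 in hippocampus, -0.40 to -0.21 in thalamus, -0.17 to 0.043 in hypothalamus (turned without HF replicate 1, and to 0.022 without MF replicate 1), -0.41 to -0.084 in striatum and -0.20 to 0.0003 in white matter, where it turned without MF replicate 2. The cause of these moves was not tested. Without HF replicate 1 or HF replicate 2, edgeR called 1166 or 840 of all features in the whole section in place of 0, where the lone HF section is assumed to vary like the MF sections. For Tspan2 in cortex, 7 of 13 alternatives kept the call and 6 lost it, at adjusted p = 0.139 on thinned spots, 0.0963 with clustering without the oligodendrocyte lists, 0.084 at Leiden resolution 0.5 and 0.119 with interior spots. The low-count members Aspa and Gjb1 had the largest SE of the set in cortex, hippocampus and striatum, and Aspa in hypothalamus. In white matter Ugt8a had the largest SE (0.160), and Gpr37 had it in thalamus (0.124) and the whole section (0.138).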
